A study of Danio rerio with 2 samples.

Results

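pax3a, pax3b, pax7a and pax7b are the 4 zebrafish genes of the Pax3 and Pax7 pair, taken by symbol from the 22077 genes of the filtered single-cell table, and all 4 were found (NCBI gene IDs 30532, 100150137, 30587 and 566533). They were measured in 2 libraries of cells from embryos carrying both Tg(crestin:mCherry) and Tg(mitfa:GFP), in which the promoters of the neural crest gene crestin and of the pigment gene mitfa drive the reporters. All embryos received MoTP, a pro-drug that kills melanocytes, from 24 hours post-fertilization (hpf), together with DMSO in the control group or with 10 µM CVT-10216, an inhibitor of the aldehyde dehydrogenase Aldh2, in the other. MoTP was washed out at 64 hpf, and after 8 h of regeneration trunks were dissected at 72 hpf from about 500 pooled embryos a group. Cells positive for GFP, for mCherry or for both were sorted together, so that the libraries hold what these reporters mark and not whole trunks. There was 1 library a condition and no replicate, so no difference between conditions was tested, and every interval given here is a 95% interval for counting error only.

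Pax3 and Pax7 proteins are transcription factors that bind DNA through a paired domain and a homeodomain. Pax3 acts at the neural plate border and in neural crest, and in mammals it activates Mitf, the regulator of melanocyte fate. Pax7 genes in zebrafish are known for a role in xanthophores, the yellow pigment cells. Both genes are also expressed in dorsal neural tube and in muscle progenitors. Teleost fish carry an a and a b copy of each.

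The filtered table held 4488 DMSO and 6795 CVT-10216 cells with 58976443 and 86348575 UMIs (unique molecular identifiers, each counting 1 captured transcript), at medians of 8581 and 9487 UMIs a cell, and 4 cell barcodes occurred in both libraries. Cells were assigned to 8 gates by UMIs of a marker. At least 5 were required of gch2 (pteridine synthesis, xanthophores), dct (melanin synthesis, melanophores), pnp4a (purine metabolism, iridophores) or fabp7a (a fatty acid binding protein of glia). At least 3 were required of phox2bb (autonomic neurons) or mpeg1.1 (macrophages). The other gates required at least 2 each of mitfa and tfec (pigment progenitors), or at least 50 of actc1b (muscle). A cell could pass several gates, possible doublets were not removed, and 2519 cells passed none. Levels are given as CPM, the UMIs of a gene per 1000000 UMIs of the cells summed. Shares of cells with a UMI are given after each cell was thinned to 4000 UMIs, which left out the 1073 DMSO and 1338 CVT-10216 cells that were shallower. Levels are not compared between genes, because 3′ end capture can differ between transcripts. A further reason is that the handling of reads shared by the a and b copies was not examined.

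The gates were read against their own markers. In the gch2 gate (967 DMSO and 1991 CVT-10216 cells) 7 of 7 xanthophore markers were at least 2-fold above the other cells in both libraries, with summed levels of 15167 and 16122 CPM against 64.9 and 83.7 CPM. However, 7 of 7 melanophore markers also passed that fold there, at 7331 and 3416 summed CPM, and 382 cells passed both the gch2 and the dct gate, 74.6% of the dct gate and 12.9% of the gch2 gate. The gch2 gate is therefore also given without the dct gate (760 and 1816 cells). Ratios of the gch2 over the dct gate count the UMIs of these 382 cells on both sides. Their intervals take the sides as independent, so for these ratios they are approximate. In the pnp4a gate (730 and 1958 cells) 8 of 8 iridophore markers were 2-fold above other cells. The mitfa with tfec gate was small (44 and 97 cells) and mixed: 88 of its 141 cells passed the gch2 gate, and 50 passed the pnp4a gate, of which 2 were DMSO cells and 48 CVT-10216 cells. In the fabp7a gate 1 of 7 and 2 of 7 glia markers passed that fold, and in CVT-10216 6 of 6 enteric neural markers did, so its cells are called by the gene and not as glia. The actc1b gate held 4 and 31 cells and is not described further.

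The 4 genes differed in how much they were seen and where. pax7a gave 12248 UMIs in 2142 cells with up to 57 in a cell, pax7b 7266 UMIs in 1907 cells, pax3a 3627 UMIs in 1657 cells, and pax3b 146 UMIs in 135 cells with never more than 2 in a cell. pax7b was the most restricted, with 95.9% of its DMSO UMIs and 97.3% of its CVT-10216 UMIs in the gch2 gate. For pax7a the gch2 gate held 70.1% and 79.0%, with most of the remainder in the pnp4a gate. pax3a was spread most widely, with 41.9% and 36.1% of its UMIs in the gch2 gate and 27.4% and 27.0% in cells of no gate.

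**Figure D1:**
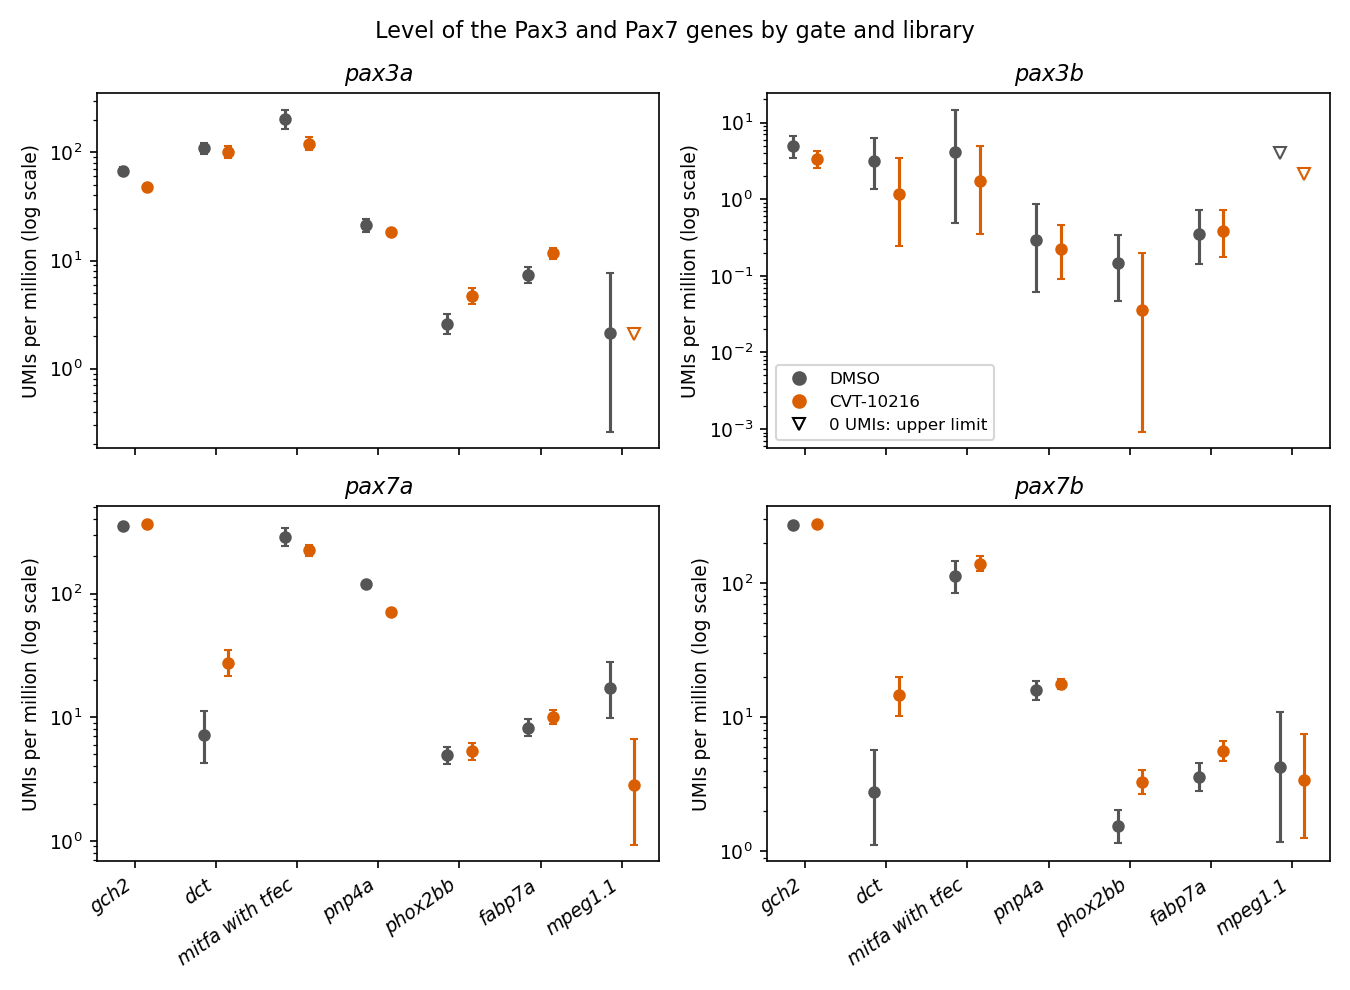
Level of each gene (CPM, log axis) by gate in the DMSO and CVT-10216 libraries, with bars giving the 95% Poisson interval of the UMIs. pax7a and pax7b sit at 269 to 368 CPM in the gch2 gate and at 2.78 to 27.5 CPM in the dct gate, while pax3a lies between 47.5 and 204 CPM in the gch2, dct and mitfa with tfec gates.

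pax7a stood at 349 CPM (336 to 363, 2710 UMIs) in the DMSO gch2 gate and at 368 CPM (359 to 377, 6625 UMIs) in the CVT-10216 gch2 gate. In the dct gate (279 and 233 cells) it stood at 7.15 CPM (4.24 to 11.3, 18 UMIs) and 27.5 CPM (21.5 to 34.8, 70 UMIs). With 0.5 UMI added to each side, as in all ratios here, the gch2 gate was 47.6-fold above the dct gate in DMSO, a log2 ratio of 5.57 (4.95 to 6.37), and 13.3-fold above in CVT-10216, a log2 ratio of 3.73 (3.40 to 4.10). The pax7a UMIs of the dct gate lay in few cells, with 77.8% and 65.7% of them in the 5 cells that held the most. Without those 5 cells in each gate the log2 ratios were 7.49 and 5.13, an alternative added after the data were seen. The cells were chosen by their pax7a UMIs and held most of those of the dct gate, so this choice itself raises the ratio.

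pax7b followed the same division. It stood at 269 CPM (258 to 281) and 275 CPM (267 to 283) in the gch2 gate, against 2.78 CPM (7 UMIs) and 14.6 CPM (37 UMIs) in the dct gate, which made the gch2 gate 90.4-fold and 18.6-fold higher. After thinning, 45.6% and 52.6% of gch2-gated cells had a pax7b UMI (54.5% and 61.6% before), against 0.488% and 1.12% of dct-gated cells. For pax7a these shares were 39.2% and 44.8% in the gch2 gate (46.2% and 51.0% before) and 3.41% and 4.47% in the dct gate. Shares after thinning cover 704 of 967 DMSO and 1474 of 1991 CVT-10216 gch2-gated cells. For the dct gate they cover 205 of 279 and 179 of 233. In the mpeg1.1 gate, whose macrophages should lack these genes, thinned cells had pax7a in 2.63% and 0.862% and pax7b in 1.32% and 0.862%, at median depths of 11262 and 13474 UMIs against 5750 and 6182 in the gch2 gate and 7035 and 8551 in the dct gate. The intervals of the dct gate shares overlapped those of the macrophage gate for both genes, from only 76 and 116 thinned macrophages. Levels in the macrophage gate were 17.1 CPM (9.80 to 27.8) and 2.85 CPM (0.926 to 6.66) for pax7a and 4.29 CPM (1.17 to 10.97) and 3.42 CPM (1.26 to 7.45) for pax7b. In CVT-10216 the dct gate lay above these levels for both genes, with most of its UMIs in 5 cells, and in DMSO it did not. The macrophage gate is not free of pigment-gated cells. Of its 203 cells 5 also passed the gch2 gate, 6 the pnp4a gate and 1 the mitfa with tfec gate. Their part in its Pax7 levels was not tested.

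pax3a showed the opposite order. In the dct gate it stood at 109 CPM (96.3 to 123, 274 UMIs) in DMSO and 101 CPM (89.1 to 114, 257 UMIs) in CVT-10216, and in the gch2 gate at 67.9 CPM (62.3 to 74.0, 527 UMIs) and 47.5 CPM (44.3 to 50.8, 855 UMIs). The log2 ratio of the gch2 over the dct gate was -0.68 (-0.89 to -0.46) and -1.09 (-1.29 to -0.88). Thinned shares of cells with pax3a were 29.3% and 27.4% in the dct gate and 21.7% and 14.6% in the gch2 gate, against 43.0%, 46.4%, 29.3% and 22.7% at full depth. No thinned macrophage-gated cell had a pax3a UMI.

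The cells that passed both gates carried part of the pax3a of the gch2 gate, a larger part in DMSO than in CVT-10216. With dct-gated cells left out, pax3a in the gch2 gate stood at 52.2 and 40.1 CPM, and in the cells of both gates at 108 and 101 CPM, close to its 111 and 103 CPM in dct-gated cells without gch2. The Pax7 genes were low in the cells of both gates, which make up most of the dct gate. There pax7a and pax7b each stood at 3.22 CPM in DMSO and at 16.4 CPM in CVT-10216. In the gch2 gate without the dct gate pax7a stood at 484 and 417 CPM and pax7b at 373 and 311 CPM. The 72 and 58 dct-gated cells without gch2 held 11 and 34 pax7a UMIs and 0 and 1 pax7b UMIs. The 207 and 175 cells of both gates held 7 and 36 UMIs of each gene, fewer a cell for pax7a.

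pax3b was near the limit of detection. It gave 38 and 60 UMIs in the gch2 gate, 4.90 CPM (3.47 to 6.72) and 3.33 CPM (2.54 to 4.29), and 8 and 3 UMIs in the dct gate. It gave 0 and 2 UMIs in pnp4a-gated cells without the gch2 and dct gates. Within the gch2 gate 2.41% and 1.90% of thinned cells had a pax3b UMI, too few for a comparison of these cells with the rest. The gch2 gate held 67.9% and 66.7% of its UMIs.

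To place this division among other genes, all genes with at least 50 summed UMIs in a comparison were given the same ratio. Of 9196 genes in DMSO, 7.83% were at least 2-fold higher in the gch2 than in the dct gate and 2.76% at least 2-fold lower. Of 11515 genes in CVT-10216 the shares were 13.8% and 4.46%. pax7a and pax7b passed the fold upwards in both libraries where they were counted, and pax3a passed it downwards in CVT-10216. In DMSO pax3a did not pass with the gates as set, but did, at -1.06, with dct-gated cells left out of the gch2 gate and, at -1.27, with a looser gate minimum. pax3b, with 60 and 3 UMIs, stood at 1.29 on the log2 scale in CVT-10216 and had under 50 UMIs in DMSO. Of the xanthophore list, 11 of 13 and 12 of 13 measured genes were 2-fold higher, with medians of 4.47 and 3.70 on the log2 scale against -0.11 and -0.03 over all genes. They included aox5, an oxidase of pteridine metabolism, at 6.02 and 4.77, and rbp4l, a retinol-binding protein gene, at 7.39 and 5.09. Of the melanin list, 9 of 9 and 8 of 8 were 2-fold lower, among them pmela, a melanosome matrix gene, at -1.76 and -2.90, and oca2, a melanosome transporter gene, at -1.80 and -2.90. These lists share their cell types with the gate genes, so that they describe the gates.

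Genes whose products work with Pax3 and Pax7 were read in the same way. The cofactor list holds paxbp1, the histone methyltransferase subunits wdr5, ash2l and kmt2d, the TEAD factors with yap1 and wwtr1, and daxx and hira. Of this list 0 of 8 measured genes in DMSO and 2 of 11 in CVT-10216 were 2-fold higher in the gch2 gate and none lower. These counts are near the 7.83% and 13.8% of all genes that were higher and the 2.76% and 4.46% that were lower. paxbp1, which links Pax3 and Pax7 to histone methyltransferases in mouse myoblasts, stood at 33.0 and 33.9 CPM in the gch2 gate and at 30.2 and 24.8 CPM in the dct gate. Of the 11 other Pax genes only pax2a, a gene of kidney, ear and hindbrain, had enough UMIs for the ratio, at 9.15 and 10.6 CPM in the gch2 gate and 1 and 2 UMIs in the dct gate. pax2a was higher in the phox2bb gate, at 13.1 and 32.3 CPM.

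The Pax7 levels were then set against the gch2 UMIs of each cell, binned without the gate. In cells with no gch2 UMI pax7a stood at 23.9 and 29.7 CPM and pax7b at 1.83 and 2.19 CPM. pax7a was 51.5 and 54.9 CPM in cells with 5 to 14 gch2 UMIs, 229 and 252 CPM with 15 to 49, and 525 and 451 CPM with 50 to 99, with 462 and 473 CPM in cells of 200 or more. pax7b reached 428 and 366 CPM in cells of 200 or more gch2 UMIs. pax3a stood at 14.1 and 24.4 CPM in cells with no gch2 UMI and at 14.4 and 20.9 CPM with 1 to 4. It was highest in the DMSO cells with 5 to 14 gch2 UMIs, at 89.8 CPM, and lower, at 47.8 CPM, in those with 200 or more. In CVT-10216 the same bins stood at 50.4 and 40.6 CPM, and the highest level, 62.8 CPM, was in cells with 15 to 49. The bins also differed in the share of dct-gated cells, which was 54.3% and 25.4% with 5 to 14 gch2 UMIs and 1.14% and 1.76% with 200 or more. Depth differed as well, with medians of 10769 and 12676 UMIs a cell with 1 to 4 gch2 UMIs, 6250 and 6974 with 5 to 14, 4149 and 4412 with 50 to 99, and 8454 and 9451 with 200 or more. How much of the pattern the dct-gated share or the depth carries was not tested.

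**Figure D2:**
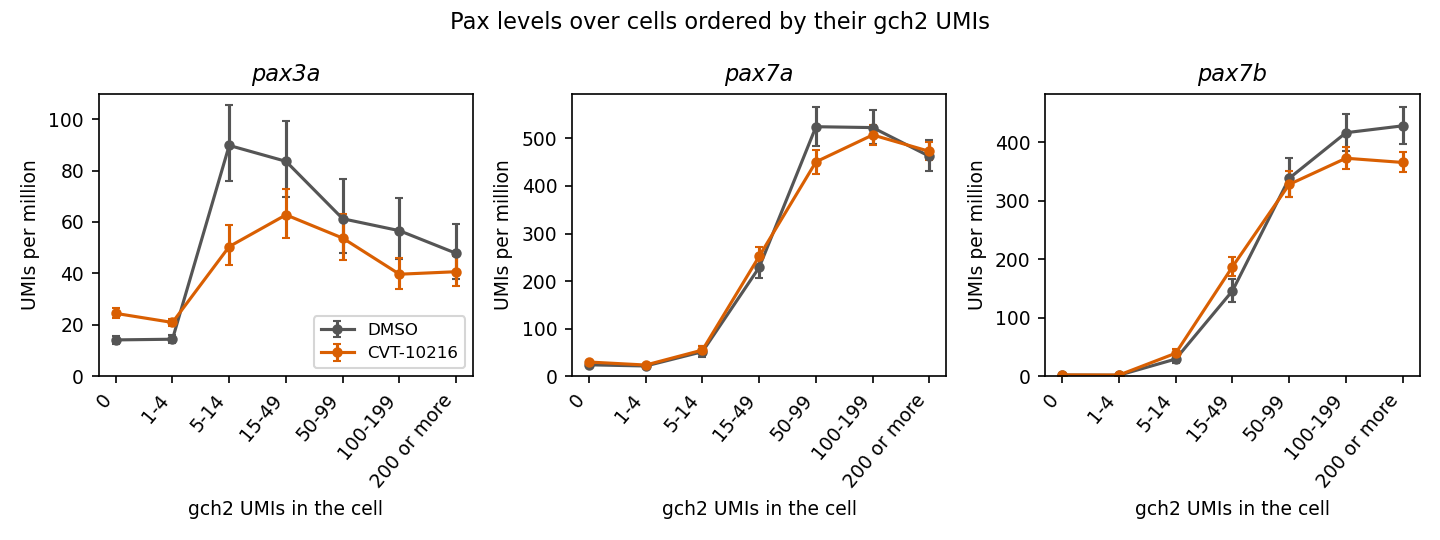
Level of pax3a, pax7a and pax7b (CPM) by the number of gch2 UMIs in a cell for both libraries, with 95% Poisson intervals. pax7a lies at 51.5 and 54.9 CPM in cells with 5 to 14 gch2 UMIs and above 450 CPM in the bins from 50 upwards, while pax3a is at 14.1 and 24.4 CPM in cells with no gch2 UMI, highest in the bins of 5 to 14 in DMSO and 15 to 49 in CVT-10216, and at 47.8 and 40.6 CPM from 200 upwards.

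Within the gch2 gate the Pax7 genes were seen in the same cells more often than apart. Of thinned cells with pax7a, 78.3% (72.9 to 83.0, 216 cells) in DMSO and 79.5% (76.3 to 82.6, 525 cells) in CVT-10216 also had pax7b, against 24.5% and 30.7% of cells without pax7a. With dct-gated cells left out, the shares were 80.0% and 79.8% against 40.3% and 37.7%. pax3a was also more often seen beside the Pax7 genes there: of thinned gch2-gated cells without dct that had pax3a, 64.3% and 66.9% had pax7a, against 48.1% and 47.1% of those without pax3a. For pax7b the same shares were 78.6% and 72.6% against 56.5% and 56.5%. With the dct-gated cells kept, the shares for pax3a and pax7a were 42.5% and 55.8% against 38.3% and 42.9%.

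Cells were also classed by whether they held a Pax3 UMI, a Pax7 UMI, both or neither. In the gch2 gate without dct, 53.4% and 56.3% held Pax7 only, 17.4% and 12.4% both, 3.22% and 2.50% Pax3 only, and 25.9% and 28.8% neither. In cells of both gates 64.8% and 72.4% held neither, 31.2% and 24.4% Pax3 only, 2.84% and 1.28% Pax7 only, and 1.14% and 1.92% both. In the whole mitfa with tfec gate, cells of other pigment gates included, the shares differed between the libraries. Both genes were held by 25.6% of 43 thinned DMSO cells and 9.47% of 95 CVT-10216 cells, and Pax7 only by 18.6% and 44.2%. Only 17 and 20 thinned cells of this gate passed none of the gch2, dct and pnp4a gates. Among them both were held by 29.4% and 20%, and Pax7 only by 5.88% and 10%.

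**Figure D3:**
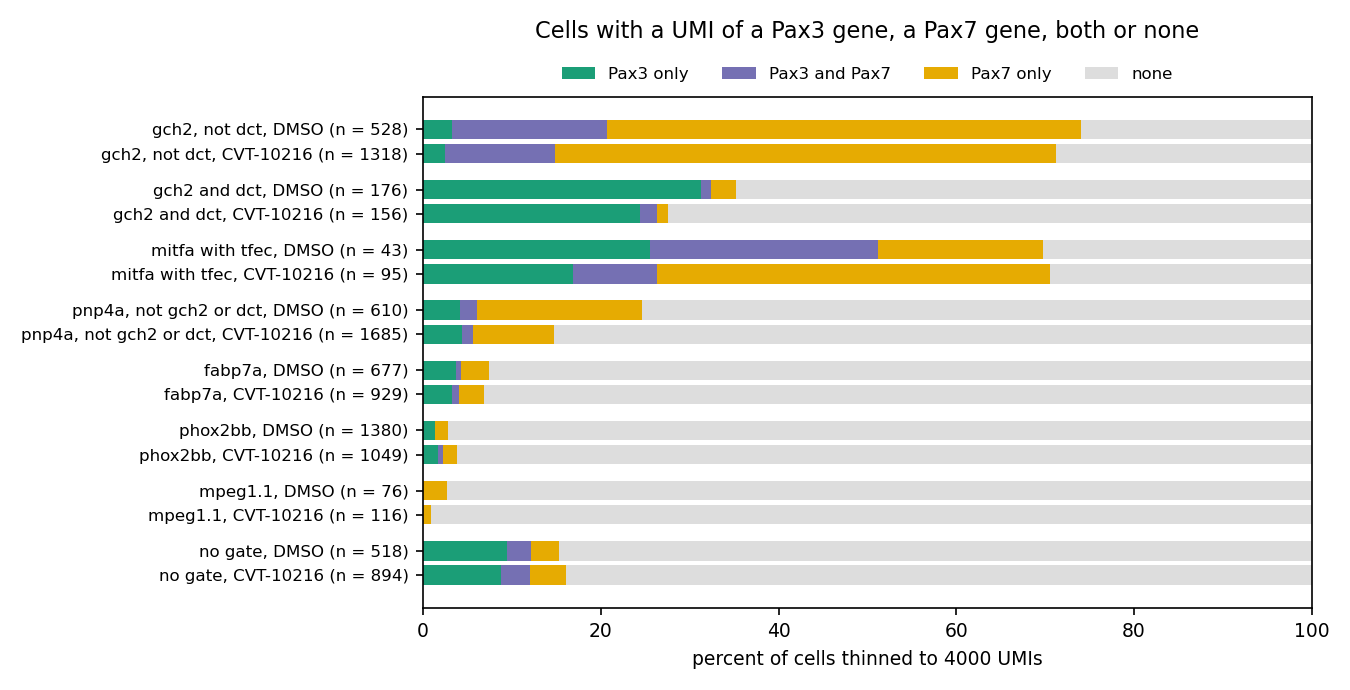
Share of cells (percent, thinned to 4000 UMIs) with a Pax3 UMI only, a Pax7 UMI only, both or neither, in each library. The sets are pigment-gated cells, the fabp7a, phox2bb and mpeg1.1 gates, and cells of no gate. Pax7 only makes up 53.4% and 56.3% of gch2-gated cells without dct, and Pax3 only 31.2% and 24.4% of cells of both gates.

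What else differed between gch2-gated cells with and without each gene was read from thinned cells, so that both sides had the same depth. In the gch2 gate 5.60% of 4803 genes were at least 2-fold higher and 4.29% lower in DMSO cells with pax7a, and 6.67% and 4.17% of 7360 genes in CVT-10216. List counts of these splits leave out the genes that set the gates, which was decided after the data were seen. Of the xanthophore list 9 of 12 and 7 of 13 were higher in cells with pax7a, and of the melanin list 5 of 6 and 4 of 6 were lower. For pax7b, where 6.25% and 4.88% of all genes were higher and 6.75% and 5.82% lower, 11 of 12 and 8 of 13 xanthophore genes were higher and 6 of 6 and 5 of 6 melanin genes lower. For pax3a, where 2.44% and 3.14% of all genes were 2-fold higher, 0 of 12 and 1 of 13 xanthophore genes and 0 of 6 and 0 of 6 melanin genes passed that fold. In DMSO all 6 melanin genes were higher by less than 2-fold, from 0.58 for tyr to 0.86 for slc24a5 on the log2 scale, with intervals above 0. Among the gate genes left out of these counts, mitfa was higher by 1.36 and 1.25 on the log2 scale. Of thinned DMSO cells, 98 of the 153 with pax3a and 430 of the 551 without it lay outside the dct gate. In CVT-10216 these were 175 of 215 and 1143 of 1259. The part of dct-gated cells in these melanin and mitfa differences was not tested.

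A smaller set of the pax7a and pax7b differences was seen with the dct-gated cells left out, a choice made after the data were seen. There 6 of 12 and 4 of 13 xanthophore genes were 2-fold higher in cells with pax7a, against 8.58% and 7.98% of all genes, and 7 of 12 and 5 of 13 in cells with pax7b, against 7.85% and 5.46%. csf1ra, the receptor xanthophores need, was higher in cells with pax7a by 1.44 and 1.56 on the log2 scale, the pteridine synthesis gene sprb by 2.55 and 1.52, and scarb1, which takes up carotenoids, by 1.90 and 1.29. Of the neural crest list 4 of 12 and 1 of 12 were higher and none lower. The gene of that list higher in both libraries was snai2, known from migrating crest, at 1.36 and 1.29, while crestin, a crest marker, was at -0.68 and -0.00052 there and at -1.87 and -0.70 with the dct-gated cells kept. The immediate early genes egr1 and atf3, which respond to stress and dissociation, were higher in these cells as well, egr1 by 1.42 and 1.56 and atf3 by 1.79 and 1.48, and their part in the other differences was not tested. egr1 and atf3 were picked out after their values were seen.

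In the pnp4a gate the Pax7 genes parted. With gch2- and dct-gated cells left out, leaving 674 DMSO and 1750 CVT-10216 cells, pax7a stood at 98.1 CPM (91.9 to 105, 921 UMIs) and 47.7 CPM (45.2 to 50.4, 1301 UMIs), and pax7b at 0.959 CPM (9 UMIs) and 0.44 CPM (12 UMIs). pax7b made up 0.968% and 0.914% of the UMIs of the Pax7 genes in these cells, against 43.5% and 42.8% in the gch2 gate. None of the 124 thinned DMSO cells with pax7a had a pax7b UMI, which allows a share of up to 2.93% of cells with a captured UMI at this depth (exact upper bound) and sets no limit on cells that express the gene. In CVT-10216 1 of 174 had one. A pax7a UMI was held by 20.3% and 10.3% of thinned cells, above the 2.63% and 0.862% of the macrophage gate. pax3a was low, at 16.7 and 16.4 CPM.

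Over all genes, 10.0% in DMSO and 11.9% in CVT-10216 were at least 2-fold higher in these pnp4a-gated cells than in the dct gate, and 10 of 10 measured genes of the iridophore list were higher in both libraries. pax7a passed this fold in DMSO, at 98.1 against 7.15 CPM in the dct gate, and not in CVT-10216, at 47.7 against 27.5 CPM, where 5 cells held most of the dct gate's UMIs.

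pax7a in pnp4a-gated cells lay mostly in a subset with fhl2b, a LIM-domain gene of the iridophore list. In the 172 DMSO and 174 CVT-10216 cells with an fhl2b UMI pax7a stood at 283 CPM in both libraries (263 to 304 and 265 to 302), and in the 502 and 1576 cells without one at 25.3 and 16.3 CPM. After thinning, 62.8% and 69.7% of cells with fhl2b had pax7a, against 10.7% and 5.69% of cells without. pax7b gave 1 and 2 UMIs in the fhl2b-positive cells. fhl2b was held by 18.5% of thinned DMSO cells and 7.24% of CVT-10216 cells, fhl2a by 20.3% and 5.16%, and csf1a, the ligand of the Csf1r receptors, by 13.6% and 8.72%. ltk, the receptor that iridophores require, was held by 13.6% and 16.5% and gbx2 by 14.3% and 17.2%, so that the share was lower in CVT-10216 for some genes of the list and not for others. The split by fhl2b and the genes set beside it were picked out after their values were seen.

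**Figure D4:**
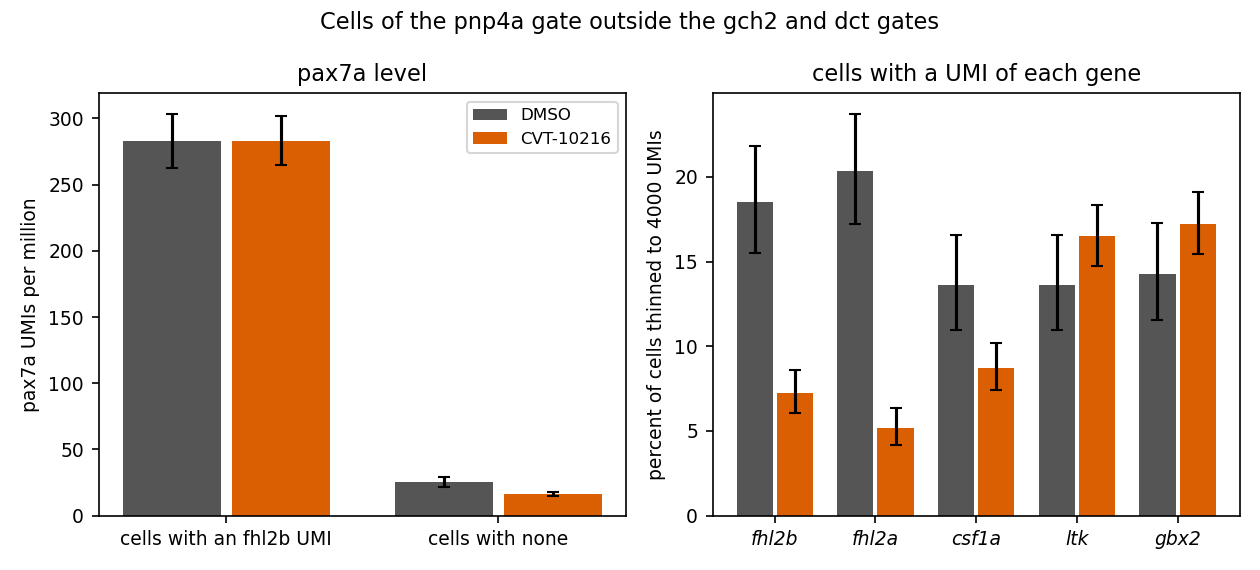
pax7a level (CPM, 95% Poisson interval) in pnp4a-gated cells without the gch2 and dct gates, split by whether a cell held an fhl2b UMI, in each library. Cells with fhl2b stand at 283 CPM in both libraries and cells without it at 25.3 and 16.3 CPM.

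Compared with the other pnp4a-gated cells, those with pax7a had 8.57% of 4165 genes in DMSO and 9.94% of 7054 genes in CVT-10216 at least 2-fold higher, and 9.00% and 10.7% lower. Of the iridophore list, gate genes left out, 6 of 10 and 6 of 10 were higher, led by fhl2b at 3.16 and 4.09 on the log2 scale and fhl2a at 2.75 and 3.99, followed by impdh1b, a gene of guanine synthesis, at 1.82 and 2.42. alx1, a homeobox gene of the same list, was at -0.88 and -1.56. Of the xanthophore list 2 of 3 and 2 of 3 were higher, slc2a15b at 2.45 and 4.06 and pcbd1 at 1.56 and 2.08. Outside the lists and picked out after their values were seen, csf1a stood at 3.19 and 4.36, fhl3a at 2.91 and 4.13, the GFP reporter at 2.40 and 2.51 and apodb at -6.33 and -4.33. Of the neural crest list 2 of 5 and 3 of 7 were higher, among them id3 at 2.57 and 3.79 and crestin at 1.53 and 1.34, and 1 of 5 and 2 of 7 lower, among them the regulator foxd3 at -1.85 and -1.79. The melanosome transporter gene slc45a2 was higher, at 2.36 and 3.80.

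The mitfa with tfec gate held the highest pax3a level of the pigment gates, at 204 CPM (166 to 248, 100 UMIs) in DMSO and 120 CPM (104 to 138, 210 UMIs) in CVT-10216, where its interval overlapped that of the dct gate. A pax3a UMI was held by 51.2% and 26.3% of its thinned cells. In the 17 and 21 cells of this gate that passed none of the gch2, dct and pnp4a gates, pax3a stood at 289 CPM (212 to 385, 46 UMIs) and 468 CPM (385 to 562, 113 UMIs), and 94.1% and 90.5% of these cells had a pax3a UMI at full depth. The order of the libraries thus turned when cells of the other pigment gates were left out. pax7a stood at 288 and 224 CPM in the whole gate, with 70.2% and 29.4% of its UMIs in 5 cells, and at 138 and 86.9 CPM in the cells of no other pigment gate. pax7b stood at 112 and 140 CPM, and at 37.7 and 33.1 CPM in the latter.

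The remaining gates held little. In the phox2bb gate (1448 and 1070 cells) pax3a stood at 2.60 and 4.72 CPM, pax7a at 4.91 and 5.30 CPM and pax7b at 1.55 and 3.32 CPM. The fabp7a gate (779 and 1057 cells) shared 1063 cells with the phox2bb gate, and there the levels were 7.36 and 11.6 CPM for pax3a, 8.22 and 10.0 CPM for pax7a and 3.60 and 5.62 CPM for pax7b. fabp7a-gated cells of no other gate (261 and 413) held pax3a at 44.9 and 51.7 CPM, so that within the fabp7a gate pax3a lay mostly outside the phox2bb cells.

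Cells of no gate held pax3a at 52.7 CPM (47.3 to 58.6) and 57.4 CPM (53.0 to 62.0), with a UMI in 11.4% and 11.6% of thinned cells. Among these, cells with pax3a had 5.16% and 4.53% of all genes at least 2-fold higher and 19.2% and 14.9% lower. Of the melanin list 3 of 3 and 3 of 3 measured genes other than mitfa were higher. mitfa itself was higher by 4.45 and 5.05 on the log2 scale, and the GFP reporter was higher by 4.004 and 5.58. tfap2e, a transcription factor of the melanocyte lineage that is on the neural crest list, was higher by 5.02 and 3.88. In DMSO sox10, at 2.32, was the only other gene of that list past 2-fold. In CVT-10216 that list went both ways. crestin at 4.36 and sox10 at 1.56 were among the highest, and sox9b at -3.11, msx3 at -1.77 and sox9a at -1.55 were the lowest. Of the myogenic list 3 of 4 and 0 of 5 were higher, and in DMSO these included myf5, which specifies muscle progenitors, at 2.42, and six1b at 2.61. Of the iridophore list 2 of 4 and 3 of 6 were higher, among them alx4a at 2.05 and 2.41 and impdh1b at 1.63 and 1.22. When the same cells were split by pax7a, 7.29% and 5.58% of all genes were higher and 3 of 4 and 3 of 5 myogenic genes were, meox1 at 3.103 and 2.39 and, in DMSO, myf5 at 7.24, with 52 of its 59 UMIs in the 23 cells with pax7a. In this split tfec, at 2.44 and 2.05, and impdh1b, at 2.31 and 1.42, were higher in both libraries, as was alx4a. Of the other iridophore genes, fhl2a, at -0.76 and 0.56, and gbx2, at 0.12 and -0.80, changed sign, from few UMIs in cells with pax7a. mitfa, tyrp1b, pmela and the GFP reporter also differed in sign between the libraries, and slc45a2 did not. In CVT-10216 mitfa was at 3.05, slc45a2 at 2.78, GFP at 2.66, tyrp1b at 2.02 and pmela at 1.08 (-0.18 to 2.03). In DMSO slc45a2 was at 1.58, from 9 UMIs in cells with pax7a. GFP was at -4.45 there, pmela at -1.99, mitfa at -1.68 and tyrp1b at -0.91, each from 1 UMI in those cells. These genes were added for this split after their values were seen. Over all cells of no gate 3 of 4 muscle progenitor markers were 2-fold above other cells in both libraries, at 102 and 107 summed CPM against 12.6 and 33.5 CPM. These cells were therefore mixed, and the part of each kind in the pax3a level was not tested.

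CVT-10216 and DMSO were then set side by side within each gate. In the gch2 gate 5.60% of 12044 genes differed at least 2-fold in either direction, and none of the 4 members did. pax3a was lower in CVT-10216 by a log2 ratio of -0.52 (-0.68 to -0.36), or -0.38 without dct-gated cells. pax3b was at -0.56, pax7a at 0.07 (0.01 to 0.14) and pax7b at 0.03 (-0.04 to 0.11). Without dct-gated cells pax7a was at -0.22 and pax7b at -0.26, so the direction of both depended on the dct-gated cells, which made up a smaller part of the gate in CVT-10216 (207 of 967 cells against 175 of 1991). The melanin list moved with these cells. In the whole gate 6 of 8 melanin genes were 2-fold lower in CVT-10216 and without dct-gated cells 0 of 5 were. Of the xanthophore list 0 of 13 were 2-fold higher and 1, rbp4l at -1.58, was lower, and of the cofactors 0 of 11 passed the fold. Of the iridophore list 5 of 10 were 2-fold higher, against 4.74% of all genes, among them the homeobox genes alx1 at 2.83, alx4b at 1.98 and alx4a at 1.86, and 5 of 10 were higher without dct-gated cells as well, against 4.91% higher and 5.64% differing in either direction there. Of the myogenic list 2 of 5 were higher, met at 2.31 and myog with 49 against 1 UMI. The part of cells or RNA of these other kinds in the ratios of the members was not tested.

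**Figure D5:**
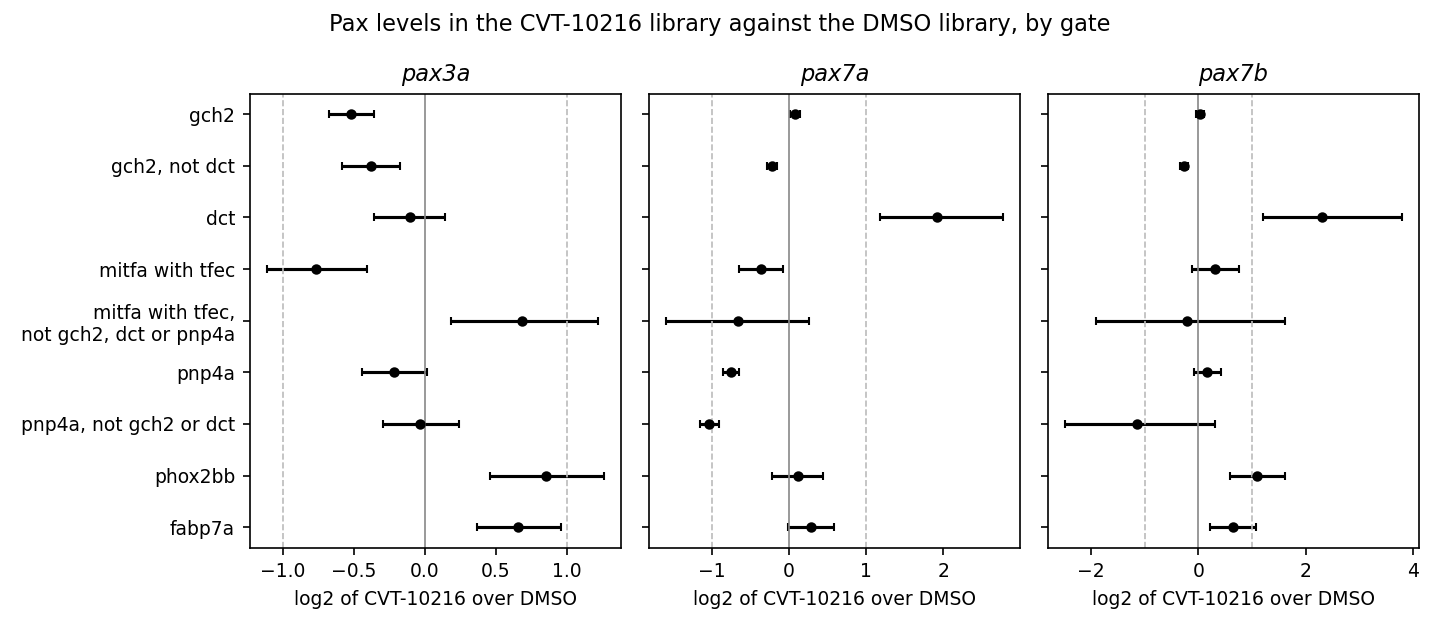
log2 ratio of CVT-10216 over DMSO for pax3a, pax7a and pax7b in each set of cells, with exact 95% intervals for counting error. pax3a lies at -0.52 in the gch2 gate and 0.69 in mitfa with tfec cells of no other pigment gate, and pax7a at -1.04 in pnp4a-gated cells without gch2 and dct.

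In the dct gate 2.57% of 6928 genes differed 2-fold, and 4 of 6 iridophore genes were higher in CVT-10216, against 1.78% of all genes. pax3a did not, at a log2 ratio of -0.11 (-0.36 to 0.14). pax7a, which passed the fold, was at 1.92 (1.18 to 2.78) and pax7b, under 50 UMIs in all, at 2.31 (1.20 to 3.80), from 18 against 70 and 7 against 37 UMIs that lay mostly in 5 cells a library. pax7a no longer passed the fold in cells of the dct gate alone (-0.0049), with a looser minimum (0.95) or with cells weighted equally (0.74). In the mitfa with tfec gate 10.1% of 4372 genes differed 2-fold, pax3a was at -0.77 (-1.12 to -0.41), pax7a at -0.37 and pax7b at 0.30, none past the fold. The sign of pax7a turned with a looser minimum (0.089), a stricter one (0.94), thinning (1.01), which took it past the fold, and without its 5 richest cells (0.72). In this gate 5 of 7 iridophore genes were 2-fold higher in CVT-10216, against 8.12% of all genes, among them alx4b at 2.81 and alx4a at 1.55, beside the 48 against 2 cells that also passed the pnp4a gate. Lower were 6 of 12 neural crest genes and 3 of 5 melanin genes, against 1.94% of all genes. Their part in the ratios of the members was not tested. In the cells of no other pigment gate pax3a was at 0.69 (0.19 to 1.22).

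In the pnp4a gate 4.51% of 12059 genes differed 2-fold, and without the gch2 and dct gates 3.98% of 11533 genes did. pax7a was lower in CVT-10216, at -0.76 (-0.86 to -0.65) in the whole gate and at -1.04 (-1.16 to -0.92) without gch2- and dct-gated cells. Only the second value passed the fold. Among cells with fhl2b the log2 ratio was 0.00 (-0.14 to 0.14), and among cells without it -0.64. The lower level thus went with a smaller share of fhl2b-positive cells, 172 of 674 in DMSO and 174 of 1750 in CVT-10216, and whether the inhibitor, the sort or the pool of embryos set this share cannot be told apart. pax3a was at -0.22 and pax7b at 0.16 in the whole gate. In the iridophore list 2 of 10 genes were 2-fold lower in CVT-10216 without the gch2 and dct gates and none higher. Other lists moved in these cells too. Of the other Pax genes 3 of 3 were higher, against 3.33% of all genes in the whole gate and 2.62% without the gch2 and dct gates, with pax2a at 2.19 and 2.24, pax6b at 1.81 and 2.06, and pax6a, from 2 DMSO UMIs in each set, at 86 and 85 UMIs in CVT-10216. These Pax genes were higher in CVT-10216 in the phox2bb gate as well, pax2a at 13.1 and 32.3 CPM, pax6a at 1.78 and 10.4 CPM and pax6b at 1.58 and 3.53 CPM. In the fabp7a gate pax2a and pax6a were higher too, and pax6b was lower, at 10.0 and 6.68 CPM. Of the myogenic list 2 of 4 were higher in the whole pnp4a gate and 1 of 4 without the gch2 and dct gates. Of the neural crest list 3 of 17 were lower in the latter cells, id3 the lowest at -1.82. Their part in the pax7a ratio was not tested.

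Over all cells pax3a was higher in CVT-10216 at 0.36, pax7a at 0.57 and pax7b at 0.67 on the log2 scale. The gch2 gate took 21.5% of the cells in DMSO and 29.3% in CVT-10216, and the phox2bb gate 32.3% and 15.7%. Levels over all cells move with such shares, which the sort can set.

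The genes whose levels over the 8 gates in 2 libraries were most like each member were ranked by Pearson correlation of log2(CPM + 1) over these 16 profiles, among genes with at least 200 UMIs. The profiles share cells between gates and come from the same libraries, so the values are descriptions. Closest to pax7b were aox5 (r = 0.990), cax1 (0.989), CABZ01021592.1 (0.988), oacyl (0.983) and tmem130 (0.979). Closest to pax7a were zgc:113142 (0.953), bscl2l (0.947), add3b (0.936), mocs2 (0.920) and rhag (0.920), with pax7b at 0.877. Closest to pax3a were si:dkey-91i10.2 (0.976), sash1b (0.964), tfap2e (0.962), rasd1 (0.960) and si:dkeyp-77h1.4 (0.960). For pax3b, which had few UMIs, they were mc5ra (0.944), cmtm3 (0.939), pld7 (0.939), C18H15orf48 (0.937) and atg9b (0.931).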

How the data were processed

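The authors deposited UMI counts per gene and cell barcode, made with Cell Ranger, aggregated over both libraries, and filtered by their quality control. The submitters' processing notes name Cell Ranger 2.1.1 and 3.1.0 and GRCz11. The barcode ending was taken as the library, by the cell number of each. No counts were changed. Gates, CPM, exact Poisson, Clopper-Pearson and conditional binomial intervals were computed in Python 3.11.15 (numpy 2.4.6, scipy 1.17.1, pandas 2.3.3, matplotlib 3.10.9), with 0.5 UMI added to each side of a ratio. For ratios over all genes, at least 50 summed UMIs were required and 2-fold was the limit. These ratios kept the 0.5 UMI for genes at 0 in a group. In ratios of single genes a group at 0 was set to 3 UMIs instead. Scaling by edgeR 4.0.16 (R 4.3.3) was an alternative. Named genes were the members, gate genes, at most the 3 highest and 3 lowest genes of each list by log2 ratio, and the 5 genes most like each member, with paxbp1 and pax2a, besides those marked as picked out later. Members and lists were chosen with earlier results of these data known. The ratio step was tested on simulated data. Alternatives were other gate minimums, full depth or thinning, 1-gate cells, equal weights, other totals, all barcodes, and leaving out the 10% deepest cells of each library. No coordinates are given.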

Additional observations from a re-analysis of the deposited data

Results flagged for a closer look

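pax3a and pax7a differed between gates in the direction or size of the CVT-10216 over DMSO ratio, with counting intervals that do not overlap in some pairs of gates, though with 1 library a condition the difference was not tested. The log2 ratio of pax3a was -0.52 in the gch2 gate and -0.77 in the mitfa with tfec gate, but 0.86 in the phox2bb gate and 0.66 in the fabp7a gate, where its level is low. In the mitfa with tfec gate its sign turned in cells of no other gate (0.69). For pax7a it was 0.074 in the gch2 gate, -0.37 in the mitfa with tfec gate and -0.76 in the pnp4a gate. The sign of pax7a turned in the gch2 gate without dct-gated cells (-0.22), in cells of 1 gate (-0.032) and with equal weights (-0.025), and in the mitfa with tfec gate with looser and stricter minimums (0.089 and 0.94), thinning (1.01) and without its 5 richest cells (0.72).

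Barcodes that the quality filter left out, 906 in DMSO and 1171 in CVT-10216 with medians of 851 and 839 UMIs, also held the members. They gave 51 UMIs of pax3a, 207 of pax7a and 185 of pax7b in DMSO, and 27, 193 and 224 in CVT-10216. Of these barcodes 354 and 432 had at least 5 gch2 UMIs, and those held 98 and 95 of the pax7a UMIs and 151 and 182 of the pax7b UMIs.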

How the results depend on the processing

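No paired analysis was possible because each condition has 1 library. The gch2 over dct ratio kept its direction under all alternatives for pax3a, pax7a and pax7b. Over all 4 genes, pax3b included, 67 of 88 values lay within the counting interval. On the log2 scale, with a looser gate minimum it was -1.27 for pax3a in DMSO, 2.22 and 1.498 for pax7a in DMSO and CVT-10216 and 2.95 for pax7b in CVT-10216. With a stricter minimum pax7a was 7.33 and 4.85. In cells of 1 gate only, pax3a was -1.30 in CVT-10216, pax7a 5.36 in CVT-10216, and pax7b 5.53 and 5.96. Without dct-gated cells pax3a was -1.06 and -1.34. Without the 5 cells richest in the member pax7a was 7.49 and 5.13 and pax7b 8.74 and 6.92, a rise that this choice of cells brings by itself. In CVT-10216 pax7a was 4.52 without the deepest cells, 4.65 with equal weights and 4.62 after thinning, and pax7b 4.77 after thinning.

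The CVT-10216 over DMSO ratio reversed or moved more often. In the gch2 gate a looser minimum gave -0.16 for pax3a, 0.23 for pax7a and 0.19 for pax7b, and cells of 1 gate gave -0.31, -0.032 and -0.15. For pax7a and pax7b it was 0.25 and 0.20 without the deepest cells, -0.025 and -0.060 with equal weights, 0.22 and 0.12 after thinning, and -0.22 and -0.26 without dct-gated cells. In the dct gate, cells of 1 gate gave 0.22 for pax3a and -0.0049 for pax7a. In the mitfa with tfec gate pax3a was 0.69 in cells of no other pigment gate and -0.36 without the deepest cells, and pax7a was 0.089 with a looser and 0.94 with a stricter minimum, 1.01 after thinning and 0.72 without its 5 richest cells. In the pnp4a gate pax7a was -0.19 and -0.87 with looser and stricter minimums, -1.09 in cells of 1 gate, -0.59 with equal weights, -1.04 without gch2 and dct gates, 0.00099 of those with fhl2b and -0.64 of those without, and pax3a with fhl2b was 0.071. In the fabp7a gate pax7b was -1.94 in cells of 1 gate and -0.18 after thinning. The causes were not tested.

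At full depth 83.4% and 85.2% of gch2-gated cells with pax7a had pax7b, and with a looser minimum 73.4% in CVT-10216. At 20 summed UMIs or at 1.5-fold, 1611 and 2204 genes passed in DMSO and, at 1.5-fold, 3929 in CVT-10216 for gch2 over dct. For CVT-10216 over DMSO these were 1295 and 1546 in the gch2 gate, 559 and 682 in the dct gate, 1099 and 1098 in the mitfa with tfec gate, and 1135 and 1333 in the pnp4a gate. Counts of pax3b were too low for its ratios to be read, and 1 library a condition leaves the spread between animals unknown.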
